A study of Homo sapiens with 9 samples.

Results

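The non-coding genes described here were 10 host genes of small nucleolar RNAs (snoRNAs), chosen by name as spliced snoRNA hosts and known targets of nonsense-mediated decay: GAS5, ZFAS1, SNHG1, SNHG3, SNHG5, SNHG6, SNHG8, SNHG12, SNHG15 and SNHG16. Of these, 9 had a row in both deposited tables, out of 51105 genes found in both. SNHG3 enters only the description of start sequences and reading frames. All values come from HEK293T, a long-established human cell line of embryonic kidney origin, fixed with 0.1% formaldehyde for 10 min. Each of 3 lysates was divided, and total RNA was sequenced from 3 inputs, 3 immunoprecipitates of PABPN, the poly(A) binding protein found mostly in the nucleus, and 3 immunoprecipitates of PABPC, its mostly cytoplasmic counterpart. An RNA immunoprecipitation (RIP) recovers the RNA held with a protein. The authors state that after fixation the RNA may be bound directly or lie very near the protein. Both proteins may also sit on the same RNA. The comparison therefore asks with which poly(A) binding protein the host transcripts were found relative to their abundance in the lysate. The libraries held from 37.2 to 49.9 M reads on annotated genes.

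A snoRNA host gene is transcribed as a long precursor whose introns contain snoRNAs. Splicing releases the introns, from which box C/D snoRNAs, which guide methylation of ribosomal RNA, or box H/ACA snoRNAs, which guide its pseudouridylation, are trimmed. The joined exons remain as a capped and polyadenylated RNA with little coding potential. Many hosts start with a 5′ terminal oligopyrimidine (TOP) tract, the cytosine followed by pyrimidines that also opens the messages for ribosomal proteins. Translation of short frames in the spliced host RNA can bring nonsense-mediated decay (NMD), which acts on RNAs with an exon junction well downstream of a stop codon and requires ribosomes in the cytoplasm.

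To see whether the hosts carried such starts, 40 bases around each start in RefSeq (build GRCh38.p14), 20 before it and 20 after it, are printed 5′ to 3′ on the strand of transcription. Capitals mark a C followed by at least 4 pyrimidines, with only that strand searched. The table held 8 of the 10 genes, SNHG3 among them, without SNHG6 and SNHG15. The windows shown are SNHG12 (chr1:28581854-28581893, minus strand), SNHG1 (chr11:62855866-62855905, minus), ZFAS1 (chr20:49278622-49278661, plus), SNHG8 (chr4:118278742-118278781, plus), SNHG5 (chr6:85678714-85678753, minus) and SNHG16 (chr17:76557744-76557783, plus). The window of GAS5 is that of its GENCODE canonical transcript (chr1:173867970-173868009, minus), because the RefSeq start of this gene lies further upstream and its window (chr1:173869026-173869065) held no such run.
SNHG12: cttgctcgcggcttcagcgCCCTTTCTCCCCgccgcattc
SNHG1: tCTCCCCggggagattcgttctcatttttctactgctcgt
ZFAS1: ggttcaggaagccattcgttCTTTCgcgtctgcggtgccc
GAS5: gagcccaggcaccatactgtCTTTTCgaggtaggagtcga
SNHG8: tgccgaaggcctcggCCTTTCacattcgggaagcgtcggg
SNHG5: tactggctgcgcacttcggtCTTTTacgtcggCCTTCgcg
SNHG16: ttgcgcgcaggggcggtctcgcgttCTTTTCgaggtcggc

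The run began at the first transcribed base in ZFAS1, SNHG5 and the canonical GAS5 transcript, 1 base before it in SNHG12, 5 bases before it in SNHG8, at base 6 in SNHG16 and 19 bases before it in SNHG1. A run was present in the window of 6 of the 8 matched genes (not in GAS5 or SNHG3), against 47.9% of all 35116 RefSeq promoters, so that its presence somewhere in the window was common. Within the first 10 transcribed bases it was found in 4 of the 8 (ZFAS1, SNHG5, SNHG12 and SNHG16), against 13.9% of all promoters. At the GENCODE canonical starts these shares were 8 of 8 in the window, against 47.1% of all such starts, and 3 of 8 in the first 10 bases (GAS5, ZFAS1 and SNHG12), against 13.3%, so that the match in the first bases of SNHG5 and SNHG16 held for the RefSeq start alone. These matches are letters in an annotated window, and the starts used in these cells were not measured.

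The 9 genes differed widely in build, and their coordinates are given with their values, on GRCh38 from GENCODE release 44. GAS5 held 11 snoRNAs in the RefSeq annotation and SNHG1 held 9, while SNHG12 held 4, ZFAS1 and SNHG16 held 3 each, SNHG5 held 2, and SNHG6, SNHG8 and SNHG15 held 1 each. Box H/ACA snoRNAs were the only kind in SNHG8 and SNHG15 and made up 3 of the 4 in SNHG12. The canonical transcripts in GENCODE release 44 had from 3 exons (SNHG6, SNHG8 and SNHG15) to 12 (GAS5). In each of the 9, the reading frame from the first AUG ended more than 50 nt upstream of at least 1 exon junction, with 7 such junctions in SNHG1, 5 in GAS5, SNHG5 and SNHG12, 2 in ZFAS1, SNHG6, SNHG8 and SNHG16, and 1 in SNHG15. These frames ranged from 3 codons in SNHG15 to 57 codons in SNHG1. In SNHG3, outside the 9, the frame ended that far upstream of 0 of its 2 junctions. The share of all lncRNA transcripts that meet this rule was not worked out, so the count has no background to be set against.

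**Figure D1:**
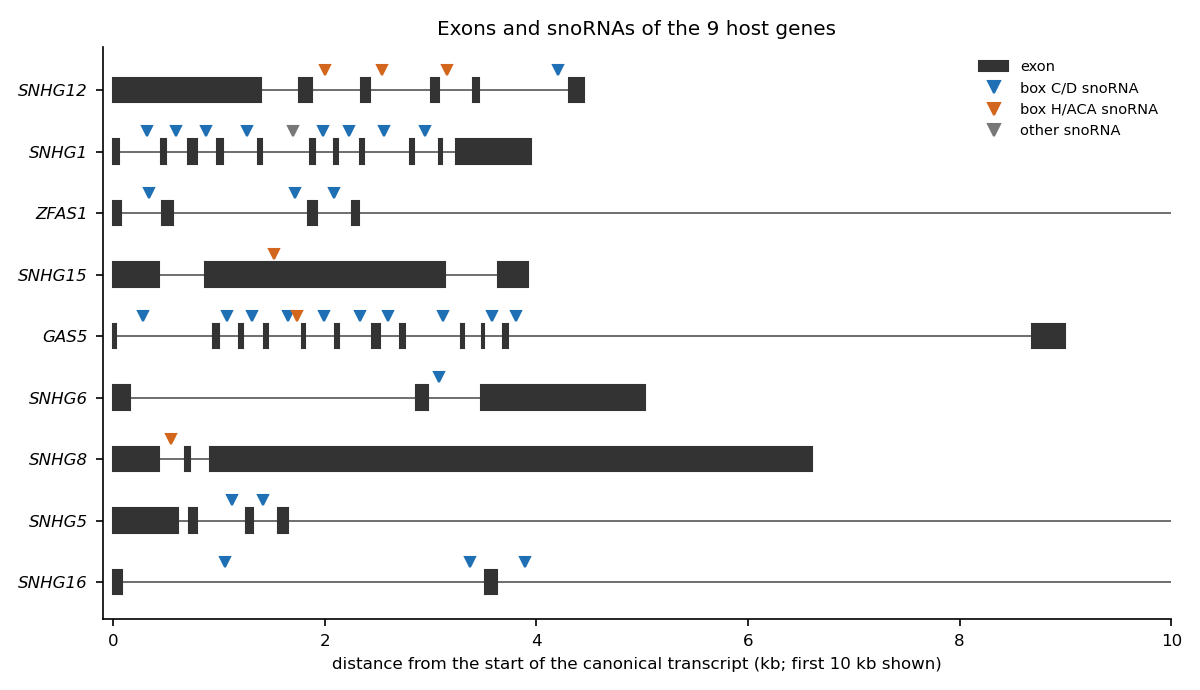
Exons (black) and snoRNAs (triangles) of the 9 host genes along the distance from the start of the GENCODE canonical transcript, in kb, with the first 10 kb drawn. GAS5 and SNHG1 alternate short exons with introns, of which 10 of 11 in GAS5 and 9 of 10 in SNHG1 hold a snoRNA, whereas SNHG8, SNHG15 and SNHG6 have few exons and 1 snoRNA each; the transcripts of ZFAS1, SNHG5 and SNHG16 run on past the edge.

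The reads of the hosts summed to 707 ± 38.2 reads per M reads (SD, n = 3) in input. The sums were 1001 ± 18.2 in the PABPN RIP and 1318 ± 123 in the PABPC RIP, with no overlap between the 3 groups. SNHG16 alone held 144 to 158 reads per M reads in the inputs and 503 to 515 in the PABPC RIPs. SNHG12 held 31.5 to 41.0 in the inputs and 22.7 to 24.9 in the PABPC RIPs, and ZFAS1 overlapped, so the sum does not describe each host. Per kb of the deposited gene length and after normalisation, GAS5 was highest in input at 1700 ± 98.8 reads per kb (SD, n = 3), followed by SNHG16 at 1326 ± 91.2, SNHG1 at 1177 ± 79.0, SNHG6 at 922 ± 82.2, SNHG15 at 599 ± 63.8, ZFAS1 at 531 ± 79.5 and SNHG12 at 405 ± 65.1. SNHG5 at 236 ± 9.16 and SNHG8 at 161 ± 23.0 were lowest. The libraries of SNHG16 overlapped those of SNHG1, and those of ZFAS1 overlapped those of SNHG15 and of SNHG12, while no other neighbours in this order overlapped. The deposited length ranged from 4.74% of the gene's span in GENCODE release 44 for SNHG16 to 99.9% for SNHG8 and SNHG15, and reads in introns and exons were counted together, so this order depends on the annotation as well as on the RNA.

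SNHG16, SNHG5, SNHG6 and SNHG8 were enriched with PABPC and did not pass the cut-offs with PABPN. GAS5, SNHG1 and SNHG15 were enriched in both RIPs. SNHG12 was enriched with PABPN alone, and ZFAS1 passed in neither. A gene counts as enriched or depleted at a log2 fold change over input beyond 0.5 with an adjusted p of at most 0.01 (Benjamini-Hochberg over the table, from the authors' DESeq2 fit) and a mean of normalised reads above 50. By this rule 4 of the 9 hosts were enriched with PABPN, where 17.5% of all genes tested were, and none was depleted, where 14.6% of all genes were. With PABPC, 7 of the 9 were enriched against 38.4% of all genes, and none was depleted against 32.4%. Intronic and exonic reads were counted together, and the authors report far more intronic reads in PABPN RIPs than in PABPC RIPs. The deposited lengths of the hosts enriched with PABPN covered 46.9% (GAS5), 92.8% (SNHG12), 99.8% (SNHG1) and 99.9% (SNHG15) of the gene's span. Those of the other hosts covered 4.74% (SNHG16), 21.4% (SNHG6), 38.8% (ZFAS1), 44.3% (SNHG5) and 99.9% (SNHG8). The spans are those of GENCODE release 44, while the reads were counted on an annotation from an earlier release. The calls thus do not separate spliced from unspliced host RNA. Where the length came to nearly the whole span (SNHG1, SNHG8 and SNHG15), the snoRNA stretches were counted too. Reads of the snoRNAs themselves could then add to those of the host, and how far they did was not tested. At an unadjusted DESeq2 p below 0.05 and with no cut-off on the change, 2 hosts (SNHG8 and SNHG16) lay below input with PABPN and 1 (SNHG12) with PABPC. The share of all genes that met this looser rule was not worked out. Of the hosts, limma called 0 depleted in either RIP, against 13.5% of 14330 genes with PABPN and 32.4% with PABPC. Most lncRNA genes were depleted with PABPC. Among all 1722 lncRNA genes tested with PABPC, 59.8% were depleted and 21.3% were enriched, whereas with PABPN 28.3% of 2182 were enriched and 3.94% were depleted. The median of the hosts was 0.35 on the log2 scale in the PABPN comparison and 0.81 in the PABPC comparison, against medians of -0.04 and 0.14 over all genes and 0.24 and -1.17 over all lncRNAs.

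**Figure D2:**
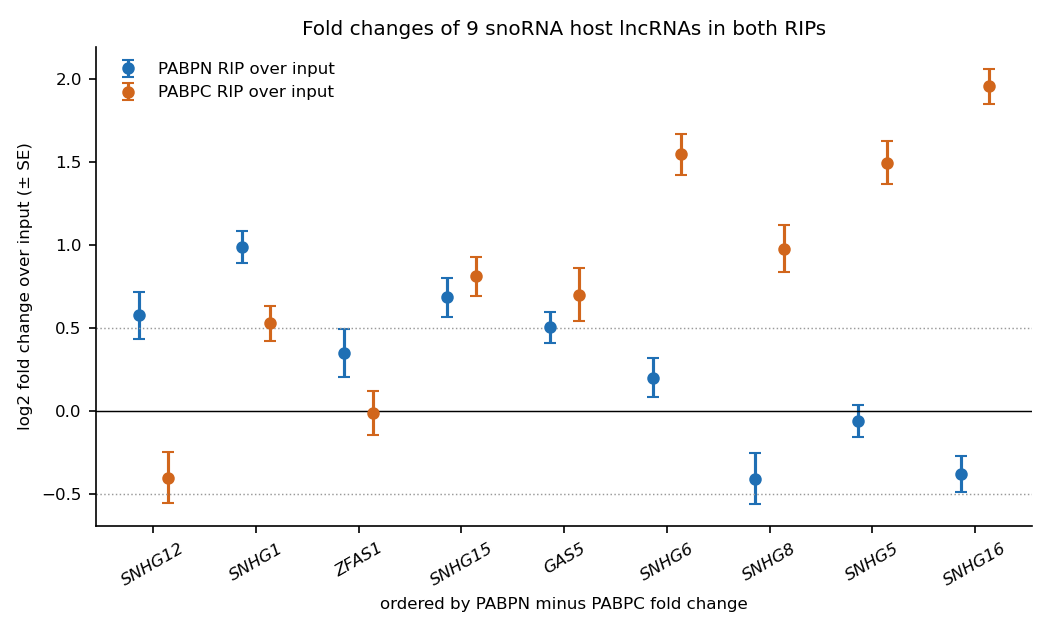
Log2 fold change over input (y axis) of the 9 host lncRNAs in the PABPN RIP (blue) and the PABPC RIP (orange), with standard errors, from left to right by falling difference between the RIPs. The dotted lines mark the fold change cut-off of 0.5, and the PABPN value is the higher one in SNHG12 (0.58 and -0.40), SNHG1 and ZFAS1 (0.35 and -0.01) and the lower one from SNHG15 (0.69 and 0.81) onwards.

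The difference between the RIPs was tested directly, as the PABPN minus the PABPC log2 fold change over the root of the summed squared standard errors, with Benjamini-Hochberg adjustment over 14581 genes. A difference beyond 0.5 with an adjusted p of at most 0.01 was found for 5 of the 9 hosts. SNHG12 was higher with PABPN, a direction taken by 36.1% of all genes and 69.0% of lncRNAs, and SNHG5, SNHG6, SNHG8 and SNHG16 were higher with PABPC, a direction taken by 33.4% of all genes and 6.74% of lncRNAs. Both comparisons share the input libraries, so their fold changes are not independent of each other. The summed errors count the spread of the inputs in both terms, although the inputs largely cancel in the difference. The errors and intervals given for the differences are therefore wider than needed. In the order of the differences, SNHG12 (0.98) was followed by SNHG1 (0.46) and ZFAS1 (0.36), then SNHG15 (-0.13) and GAS5 (-0.20), then SNHG6 (-1.35), SNHG8 (-1.39) and SNHG5 (-1.56), and last SNHG16 (-2.34). Neighbours in this order lay less than 2 combined standard errors apart, except SNHG12 and SNHG1 (2.04), GAS5 and SNHG6 (4.59) and SNHG5 and SNHG16 (3.52). Among the lncRNAs tested in both RIPs, whose median difference was 1.60, 24.0% had a lower value than SNHG1, 21.9% than ZFAS1, 14.5% than SNHG15 and 13.7% than GAS5, and at most 3.49% had a lower value than SNHG5, SNHG6, SNHG8 or SNHG16. All 9 hosts thus lay on the PABPC side of the lncRNA median, as did the other snoRNA host lncRNAs tested except SNHG22. Among all genes, whose median difference was 0.07, 5.84% had a lower value than SNHG16, 14.7% than SNHG5, 17.4% than SNHG8 and 18.1% than SNHG6. The share was 43.0% for GAS5 and 44.8% for SNHG15. ZFAS1 (57.8%), SNHG1 (60.3%) and SNHG12 (72.7%) lay on the PABPN side of the median of all genes.

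SNHG16 (chr17:76557727-76670985, plus strand), which hosts 3 box C/D snoRNAs of the SNORD1 family, showed the widest gap. Its normalised reads were 6599, 7573 and 7168 in the inputs, 5882, 5477 and 5057 in the PABPN RIPs, and 25871, 28412 and 28600 in the PABPC RIPs. All PABPC libraries stood above all others, and all PABPN libraries stood below the inputs. The log2 fold change with PABPC was 1.96 ± 0.11 (SE, adjusted p = 2.59e-74), a 3.88-fold rise. With PABPN it was -0.38 ± 0.11 (adjusted p = 0.0018), short of the cut-off of 0.5. The difference between the RIPs was -2.34 ± 0.15 (adjusted p = 3.51e-52), or 5.05-fold, and only 0.542% of lncRNAs had a lower value.

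SNHG5 (chr6:85650491-85678932, minus strand), host of SNORD50A and SNORD50B, had 2844, 3059 and 3023 normalised reads in the inputs and 2949, 2914 and 2714 in the PABPN RIPs, so that these groups overlapped. The PABPC RIPs had 9803, 7806 and 7606, all higher. Its log2 fold change was 1.50 ± 0.13 with PABPC (adjusted p = 2.31e-30) and -0.06 ± 0.10 with PABPN (adjusted p = 0.687). The difference was -1.56 ± 0.16 (adjusted p = 2.68e-21).

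SNHG6 (chr8:66920561-66926398, minus strand), host of SNORD87, had 1032, 1217 and 1201 normalised reads in the inputs, 1301, 1262 and 1406 in the PABPN RIPs, and 3612, 3347 and 3129 in the PABPC RIPs. The 3 groups did not overlap, although the step from input to PABPN was small. The log2 fold change was 1.55 ± 0.12 with PABPC (adjusted p = 7.56e-36) and 0.20 ± 0.12 with PABPN (adjusted p = 0.164), a difference of -1.35 ± 0.17 (adjusted p = 7.75e-15).

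SNHG8 (chr4:118278703-118285316, plus strand), host of the box H/ACA SNORA24, had the lowest mean of normalised reads among the hosts in input and in the PABPN RIP. It gave 888, 1163 and 1137 normalised reads in the inputs, 890, 828 and 684 in the PABPN RIPs, and 2243, 2081 and 1966 in the PABPC RIPs. The PABPN libraries overlapped the lowest input, and the PABPC libraries were all higher. The log2 fold change was 0.98 ± 0.14 with PABPC (adjusted p = 1.32e-11) and -0.41 ± 0.15 with PABPN (adjusted p = 0.0217), a difference of -1.39 ± 0.21 (adjusted p = 7.33e-11).

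**Figure D3:**
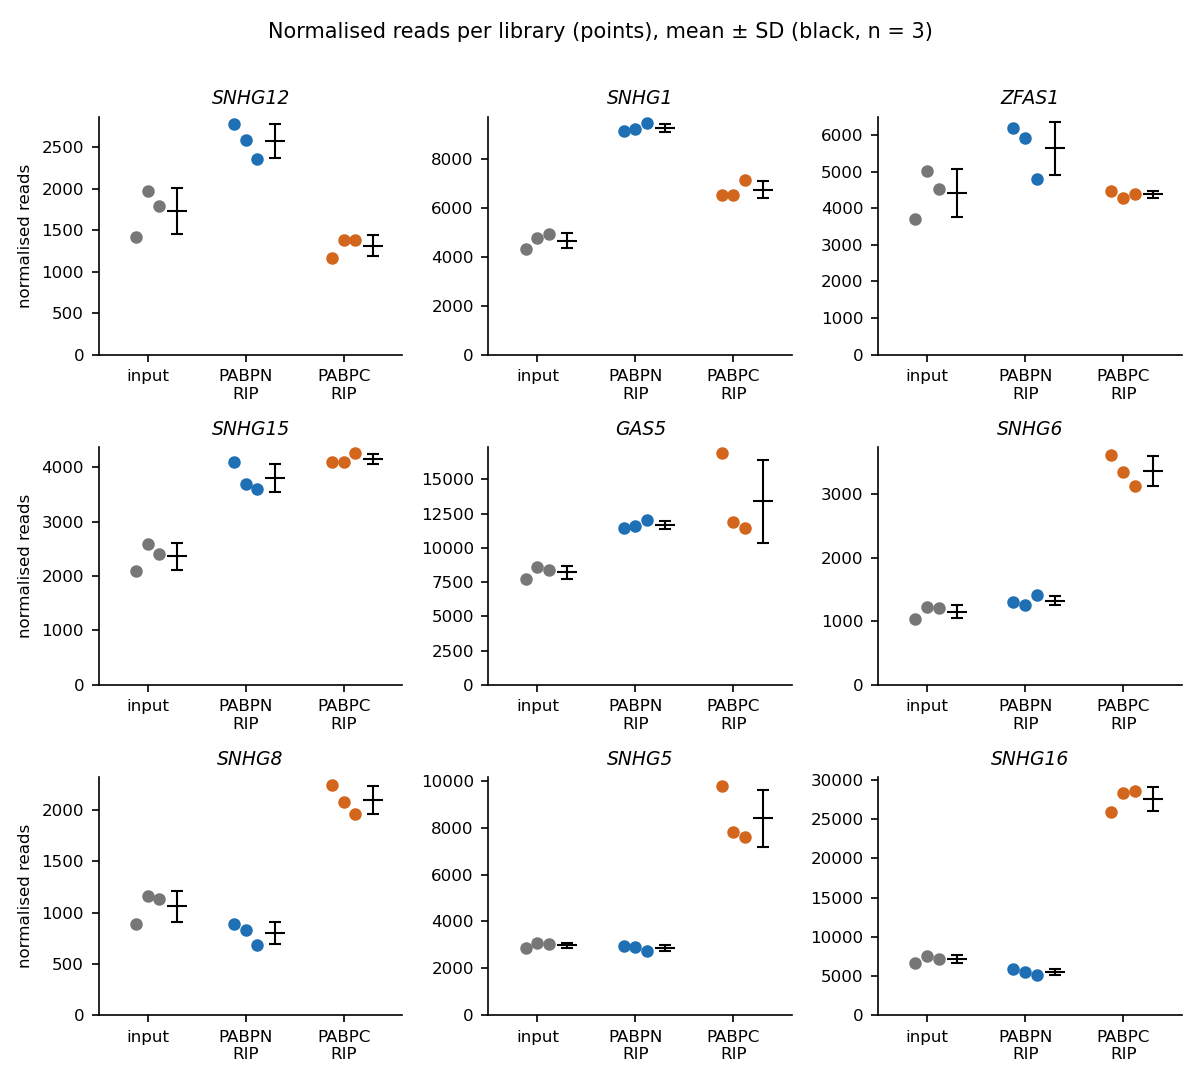
Normalised reads (y axis, starting at 0) of the 9 host lncRNAs in each of the 3 libraries of input, PABPN RIP and PABPC RIP, with the mean and SD in black. The panels run from SNHG12, with 2361 to 2776 normalised reads in the PABPN RIPs and 1163 to 1384 in the PABPC RIPs, to SNHG16, with 25871 to 28600 in the PABPC RIPs; GAS5 has 1 PABPC library, at 16898, well above the other two.

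SNHG1 (chr11:62851978-62855953, minus strand), which carries SNORD22 and SNORD25 to SNORD31, was the host most enriched with PABPN. It had 4324, 4764 and 4931 normalised reads in the inputs, 9170, 9232 and 9482 in the PABPN RIPs, and 6557, 6547 and 7153 in the PABPC RIPs. No 2 groups overlapped, and both RIPs stood above input. The log2 fold change was 0.99 ± 0.10 with PABPN (adjusted p = 5.74e-23), a 1.99-fold rise, and 0.53 ± 0.11 with PABPC (adjusted p = 1.88e-06). The difference of 0.46 ± 0.14 had an adjusted p of 0.00206 but did not exceed 0.5. Centring all PABPC fold changes on their median left SNHG1 at 0.39 with PABPC, under the cut-off.

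SNHG15 (chr7:44983019-44986961, minus strand), whose SNORA9 lies in an exon of the canonical transcript, had 2093, 2591 and 2400 normalised reads in the inputs, 4098, 3695 and 3609 in the PABPN RIPs, and 4093, 4100 and 4263 in the PABPC RIPs. The RIPs overlapped each other and both stood above input. Log2 fold changes were 0.69 ± 0.12 with PABPN (adjusted p = 7.33e-08) and 0.81 ± 0.12 with PABPC (adjusted p = 2.05e-11). The 95% interval of the difference ran from -0.46 to 0.20.

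GAS5 (chr1:173858559-173868882, minus strand), a host of 10 box C/D snoRNAs whose spliced RNA accumulates when cell growth is arrested, had 7694, 8612 and 8386 normalised reads in the inputs, 11456, 11603 and 12032 in the PABPN RIPs, and 16898, 11865 and 11447 in the PABPC RIPs. Both RIPs stood above input, and 1 PABPC library was far above the other two, which lay near the PABPN RIPs. The log2 fold change was 0.51 ± 0.09 with PABPN (adjusted p = 5.75e-07) and 0.70 ± 0.16 with PABPC (adjusted p = 2.30e-05). The interval of the difference ran from -0.56 to 0.17. The PABPN value lay just past the cut-off. Without the high library, which was named PABPC RIP a, a limma fit to the recovered reads gave a log2 fold change of 0.50 with PABPC and a difference of 0.0049 between the RIPs. With any 1 library of input or PABPN RIP left out, that fit no longer called GAS5 enriched with PABPN, although the log2 fold change stayed between 0.46 and 0.54, since the adjusted p rose to between 0.0211 and 0.0266. The fold change itself fell under 0.5 without input a (0.46) or PABPN RIP c (0.49).

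SNHG12 (chr1:28578538-28583132, minus strand), host of 3 box H/ACA snoRNAs and SNORD99, was the host whose difference towards PABPN passed the cut-offs. It had 1422, 1967 and 1788 normalised reads in the inputs, 2776, 2588 and 2361 in the PABPN RIPs, and 1163, 1380 and 1384 in the PABPC RIPs. No groups overlapped, with PABPN above input and PABPC below it. The log2 fold change was 0.58 ± 0.14 with PABPN (adjusted p = 0.000206) and -0.40 ± 0.15 with PABPC (adjusted p = 0.0158), and the difference was 0.98 ± 0.21 (adjusted p = 5.13e-06), or 1.97-fold. In the limma fit the PABPN call was lost without input a (0.45), PABPN RIP a (0.53) or PABPN RIP b (0.58).

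ZFAS1 (chr20:49278178-49299600, plus strand), host of SNORD12, SNORD12B and SNORD12C and antisense to the start of ZNFX1, had 3708, 5019 and 4518 normalised reads in the inputs, 6185, 5918 and 4808 in the PABPN RIPs, and 4479, 4284 and 4405 in the PABPC RIPs. Each RIP overlapped input, the inputs were widely spread, and the PABPN RIPs stood above the PABPC RIPs. Log2 fold changes were 0.35 ± 0.15 with PABPN (adjusted p = 0.0397) and -0.01 ± 0.13 with PABPC (adjusted p = 0.957). The interval of the difference ran from -0.03 to 0.75, with an adjusted p of 0.0846 by the normal test. With the variance of the shared input taken out, that test gave an adjusted p of 0.0124. The direct limma contrast gave a difference of 0.35 ± 0.12 (adjusted p = 0.0212). With 1 set of size factors over all 9 libraries, that limma contrast gave 0.11 (adjusted p = 0.422), so the difference depended on the scaling.

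The calls near the cut-offs depended on the scaling. With 1 set of size factors over all 9 libraries, PABPN log2 fold changes moved by -0.17 and PABPC log2 fold changes by 0.07. GAS5 and SNHG12 then lost their PABPN call (0.34 and 0.42), while SNHG8 and SNHG16 came out as depleted with PABPN (-0.57 and -0.55). SNHG1 and SNHG15 stayed enriched, as did all 7 hosts called with PABPC. Both shifts lower the difference between the RIPs. In the limma contrast, GAS5 moved from -0.18 to -0.42 (adjusted p = 0.0103) and SNHG15 from -0.13 to -0.37 (adjusted p = 0.00413). SNHG1 moved from 0.46 to 0.22 (adjusted p = 0.0262) and ZFAS1 from 0.35 to 0.11 (adjusted p = 0.422). These hosts did not pass both cut-offs, and 1 host stayed higher with PABPN and 4 with PABPC.

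The other genes of these pathways give the setting for the hosts. Of 18 other snoRNA host lncRNAs tested, 4 were enriched and 2 depleted with PABPN, and 10 were enriched and 5 depleted with PABPC, with medians of 0.30 and 0.77. DANCR and SNHG29 lay furthest to PABPC, with differences of -2.11 ± 0.22 and -2.08 ± 0.14. SNHG22 and SNHG26 lay furthest to PABPN, with 2.48 ± 0.28 and 1.37 ± 0.23. The members' range of differences, from -2.34 to 0.98, thus reached less far towards PABPN and slightly further towards PABPC. The ranges compare the extremes of 9 genes with those of 18.

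Ribosomal protein genes and the other coding genes listed as TOP messages were mostly higher with PABPC and lower with PABPN. The ribosomal protein genes were taken by symbol, which brings in related genes such as RPL7L1 and RPL39L. The starts of these coding genes were not examined one by one. Of 83 ribosomal protein genes tested, 83 were enriched with PABPC and 78 were depleted with PABPN, with medians of 2.05 and -1.27. RPS21, with a difference of -4.15 ± 0.22, and RPL8, with -4.06 ± 0.18, were lowest, and RPL7L1, with -1.60 ± 0.15, and RPL39L, with -1.44 ± 0.20, were highest. Of 17 other TOP messages, 16 were enriched with PABPC and 16 depleted with PABPN. The translation factor genes EEF1A1 and EEF1G had differences of -3.87 ± 0.21 and -3.78 ± 0.15, while EEF1D and EIF3H were at -0.90 ± 0.25 and -0.48 ± 0.19. None of the 9 host lncRNAs was called depleted with PABPN in the deposited fit.

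Coding genes with intronic snoRNAs, outside the ribosomal proteins, were mostly lower with PABPN. EEF1B2, EEF2, RACK1 and TPT1 among them were already counted with the other TOP messages. Of 26, none was enriched and 16 were depleted with PABPN, and 14 were enriched and 2 depleted with PABPC. EEF2 (-3.58 ± 0.24) and TPT1 (-3.33 ± 0.16) had the lowest differences. TAF1D, a host of several box C/D snoRNAs, was highest at 0.97 ± 0.19, close to SNHG12, followed by PTCD3 at 0.47 ± 0.16.

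Of 10 coding messages used as NMD targets, 1 was enriched with PABPN and 9 were enriched with PABPC, with medians of 0.10 and 1.20 and no depletion in either RIP. ATF4, a stress-response transcription factor, and BAG1 had differences of -2.16 ± 0.24 and -2.11 ± 0.25. DDIT3 was at -0.60 ± 0.62 and SMG5, itself an NMD factor, at -0.44 ± 0.19. Among 14 genes for NMD and exon junction factors, 3 were enriched and 3 depleted with PABPN, and 5 were enriched and 2 depleted with PABPC. EIF4A3 (-2.48 ± 0.22) and RBM8A (-2.26 ± 0.20) of the junction complex were lowest, and SMG1 (1.06 ± 0.25) and SMG6 (1.48 ± 0.14) were highest.

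**Figure D4:**
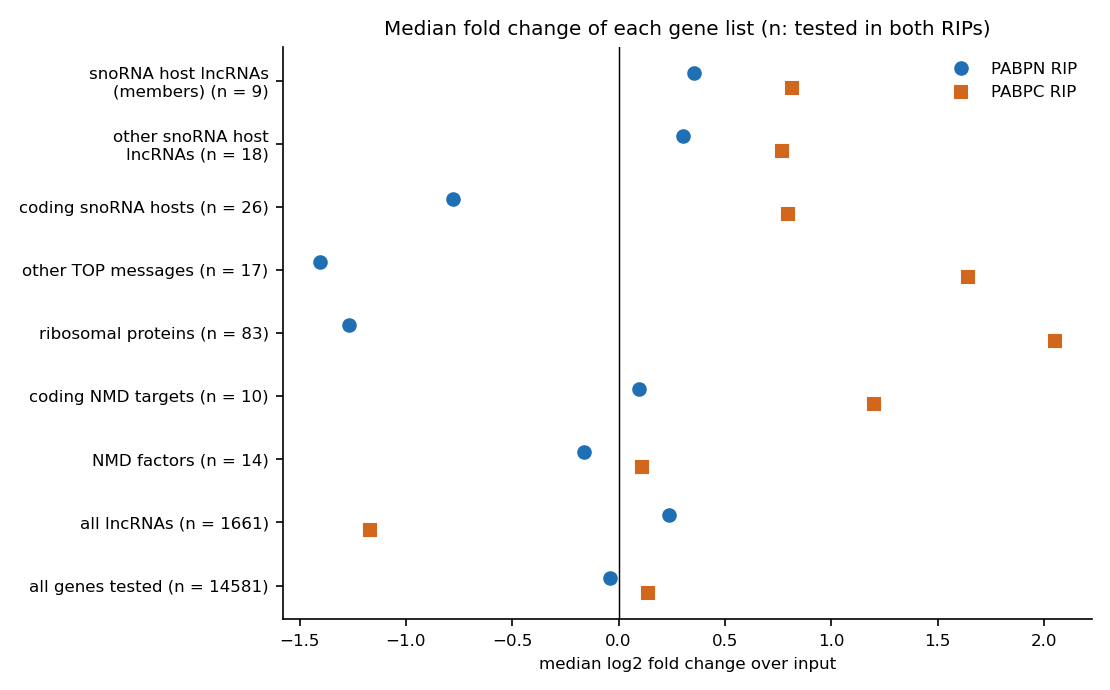
Median log2 fold change over input (x axis) of each gene list in the PABPN RIP (blue circles) and the PABPC RIP (orange squares), with n the number of genes tested in both. The 9 hosts lie at 0.35 and 0.81, to the right of 0 in both RIPs, whereas ribosomal protein genes lie at -1.27 and 2.05 and all lncRNAs at 0.24 and -1.17.

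The lncRNAs outside the hosts whose pair of fold changes came nearest to the hosts' median, among 666 with a mean above 200 normalised reads in both tables, were SNHG19, PXN-AS1, DHRS4-AS1, LINC00863 and VPS9D1-AS1. SNHG19, a further snoRNA host, was at 0.41 ± 0.15 with PABPN and 0.81 ± 0.17 with PABPC, a distance of 0.0570 on the log2 scale. The distance of VPS9D1-AS1, the fifth, was 0.204.

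**Figure D5:**
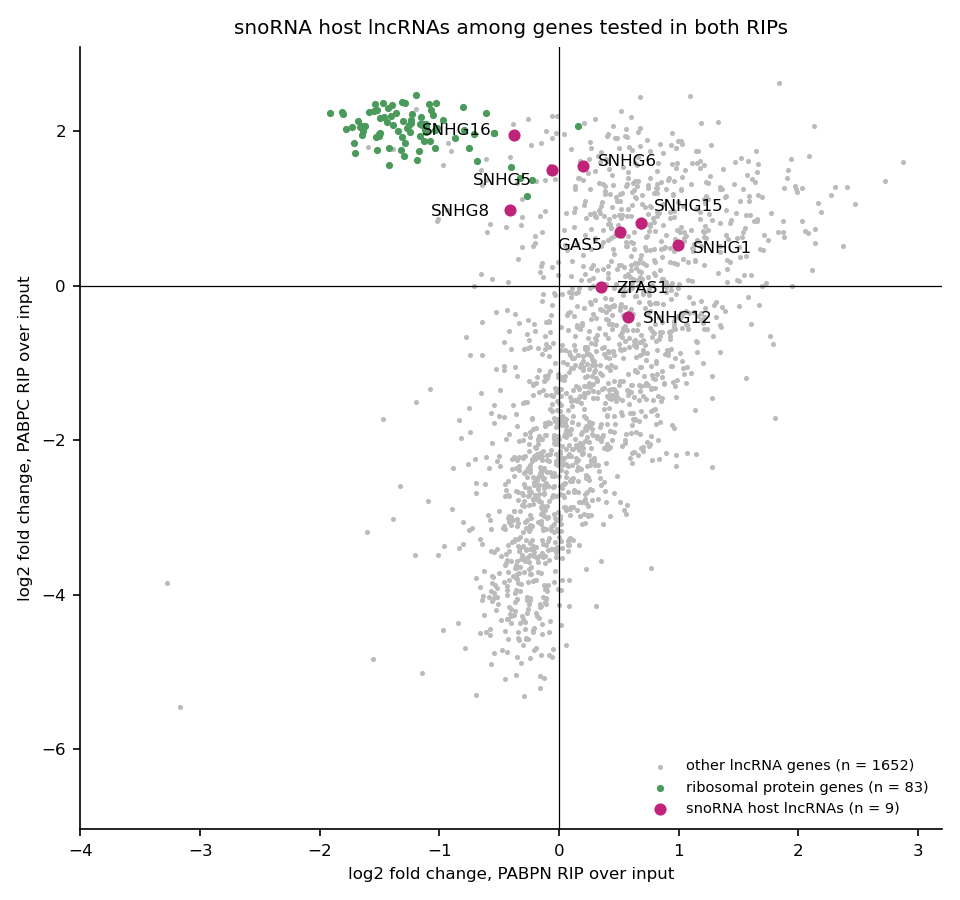
Log2 fold change over input in the PABPN RIP (x axis) and the PABPC RIP (y axis) for the 9 host lncRNAs, other lncRNA genes and ribosomal protein genes with a mean above 50 normalised reads in both tables. The hosts run from SNHG16 at -0.38 and 1.96, above nearly all lncRNAs with a similar PABPN value, to SNHG12 at 0.58 and -0.40, among them; 3 points lie outside the x axis.

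The cell type was checked on its markers. KRT8, KRT18, VIM, CDH2, INA and PAX2, which HEK293T cells are known to express, had at least 259 mean normalised reads in input. PTPRC, ALB and PECAM1, which mark blood, liver and endothelial cells, had 0.695, 5.09 and 13.8, and the erythroid gene HBB had 0. COL1A1, a collagen gene of fibroblasts, had 304. Because RNA was measured in bulk, the number of RNA molecules per cell and the recovery of each RIP cannot be told apart.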

How the data were processed

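RNA of HEK293T cells from 3 inputs, 3 PABPN RIPs and 3 PABPC RIPs was sequenced after ribosomal RNA depletion, with 75 nt single-end reads. Sample titles gave the groups. The authors aligned reads to hg38 with STAR and counted exonic and intronic reads together with featureCounts 2.0.2 on a custom annotation derived from an earlier GENCODE release, from which stretches shared by overlapping genes had been removed. The deposited length of SNHG1 nevertheless came to 3970 of the 3976 bases that the gene spans, with its snoRNAs included. Genes with transcription running in from upstream were also removed. With DESeq2 the authors then contrasted either RIP with input, which gave the 2 deposited tables. The signal column deposited by the authors (baseMean) is the mean over 6 libraries of reads divided by size factors. On the log2 scale the authors gave each fold change over input with its standard error. Their ratio, the Wald statistic, is a deposited score. The deposited p-value and its Benjamini-Hochberg adjustment follow from it. These columns are the authors' own comparisons and are used here as deposited for the members, since the genes were chosen as rows of those tables. The first of repeated rows was kept.

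Because the means were written with 15 digits, the whole reads of each library were recovered. The mean of a gene with 1 read in all gives the size factor of its library, and the reads of every gene in all 9 libraries are the whole numbers that give both deposited means to the last digit and both fold changes. Of 51105 genes, 50831 were resolved (99.5%), all 9 hosts among them, and the fold changes recomputed from these reads deviated from the deposited ones by 1.06e-09 at the median. The method was tested on simulated data. The libraries carry no replicate number and are called a, b and c within each group by falling size factor, in which order values are listed for every gene. Normalised reads are reads over the deposited size factors, with the PABPC libraries brought to the scale of the PABPN table through the shared inputs. Nothing used here says more of the replicates than that each came from its own lysate, so errors cover the spread between these samples.

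The difference between the RIPs was computed from the deposited values and tested with a two-sided normal test. As an added alternative, limma 3.58.1 (voom, R 4.3.3) was fitted to the recovered reads of genes with a mean above 50 in both tables, with each library left out in turn. Other computation used Python 3.11.15. Genes named outside the members were the 2 highest and 2 lowest of each list by the difference between the RIPs, and the 5 nearest lncRNAs. The members and the gene lists were chosen with earlier results of these data known.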

Additional observations from a re-analysis of the deposited data

How the results depend on the processing

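No paired analysis was possible because the recovered libraries carry no replicate number. The quasi-likelihood count test planned for recovered reads was not run, and limma, chosen after seeing the data, took its place. Of 396 values of single hosts under the alternatives, 355 kept their direction and their side of the threshold. The filters on mean reads, the choice of repeated row and the removal of the shared input variance changed no count of hosts. All hosts had a mean above 200, so the filters could not change their fold changes. The choice of repeated row gave the same values for every host. These settings are among the 355 and say little about how firm the calls are. Hosts enriched with PABPN numbered 0 at a log2 cut-off of 1, 1 when the change itself was tested against 0.5, and 2 with 1 set of factors over all 9 libraries, where 2 were depleted. Hosts enriched with PABPC numbered 3 at a cut-off of 1 and 4 when the change was tested against 0.5. Centring on the median made 1 host, SNHG12, depleted with PABPC (-0.54). No host (0) was higher with PABPN by a difference beyond 1. With each library left out of the limma fit in turn, 2 to 3 hosts were enriched and 0 to 1 depleted with PABPN. With PABPC, 6 to 7 were enriched and 0 to 1 depleted. Between the RIPs, 1 to 2 were higher with PABPN and 4 higher with PABPC. The share of all genes called under each of these other settings was not worked out, so these counts have no background to be set against. Without input a, SNHG8 became depleted with PABPN (-0.53), SNHG12 became depleted with PABPC (-0.53) and SNHG1 lost its PABPC call (0.48), as it did without PABPC RIP c (0.49), where its difference between the RIPs passed (0.50). ZFAS1 with PABPC, near 0, changed sign in limma (0.0023), with 1 set of factors (0.077) and without input b (0.10), input c (0.025) or PABPC RIP b (0.020), and the difference of GAS5 did so without PABPC RIP a (0.0049). Over all libraries left out, these values ran from -0.12 to 0.10 for ZFAS1 and from -0.28 to 0.0049 for GAS5. The motif was present in 100% of the 8 matched genes at GENCODE canonical starts, against 47.1% of all such starts, and in the first 10 bases in 37.5% there against 13.3% of all, where RefSeq starts gave 50%. The cause of these shifts was not tested.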

Other observations

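Other snoRNA host lncRNAs, picked here after their values were seen, showed similarly varied patterns. Their differences went further towards PABPN than those of the 9 hosts (up to 2.48) and less far towards PABPC (down to -2.11). SNHG4 and SNHG20 were enriched with PABPN and higher there than with PABPC, by 1.07 and 0.93 on the log2 scale, and SNHG17 was higher with PABPN by 0.86. SNHG11 was enriched in both RIPs (0.95 with PABPN and 1.19 with PABPC), as was EPB41L4A-AS1 (0.82 and 1.21). SNHG9, SNHG7, SNHG30 and SNHG32 were higher with PABPC, with differences of -1.61, -0.87, -0.85 and -0.85. SNHG10 was depleted in both RIPs, at -1.20 with PABPN and -1.50 with PABPC.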
